A study of Callithrix jacchus with 4 samples.

Results

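Human chromosome band 9q34 holds a dense row of genes that lie together in the marmoset genome as well. Of 35205 genes counted in newborn marmoset brain, 8 genes of this band are described here: GBGT1, REXO4, SARDH, MAMDC4 and PRDM12, which were among the largest differences between FMR1 mutant and wild-type libraries, and RALGDS, SURF4 and VAV2, which were picked because they lie beside them. The first 5 were chosen from the very comparison reported below, so their differences are given as a description, without a test. The study made FMR1 mutant common marmosets (Callithrix jacchus) with CRISPR/Cas9 and sequenced poly(A) RNA of the forebrain (cortex, striatum and hippocampus) at postnatal day 5, with 2 wild-type and 2 FMR1 mutant libraries. FMR1 encodes FMRP, an RNA-binding protein whose loss causes fragile X syndrome. The labels name the tissue of each library only as brain, and they give no allele, sex, litter or parentage, nor whether the 2 libraries of a group came from separate animals. The p-values below therefore measure the spread between these libraries.

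Genes that sit side by side on a chromosome are usually inherited together as a haplotype, a stretch of DNA passed on as a unit. A variant on such a stretch can raise or lower the RNA of a gene on the same DNA molecule, and animals of 1 family can share it. The 8 genes do mostly unrelated work, though RALGDS and VAV2 both activate GTPases. GBGT1 makes a glycolipid of the globo series, REXO4 is an RNA exonuclease, SARDH is a mitochondrial enzyme that breaks down sarcosine, MAMDC4 is a membrane protein of apical endosomes, and PRDM12 is a transcription factor required for pain-sensing neurons. RALGDS activates RAL GTPases, SURF4 carries secreted proteins out of the endoplasmic reticulum, and VAV2 activates RAC GTPases.

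Depth was similar between groups, from 12331639 to 13455702 counts per library. FMR1 itself was counted 1144 and 966 times in the wild-type and 1062 and 1603 times in the mutant libraries, with groups that overlapped. The labels give no allele, and why FMR1 RNA was not lower in the mutant libraries was not tested. The summed level of 8 neuronal markers was 6867 to 6982 CPM (the count scaled to a common library size) in wild-type and 6940 to 7223 CPM in mutant libraries, while 6 of the 8 were below 0 in log2 fold change and 2 fell (GAD2 and NEFL). Of 9 hindbrain and spinal cord markers, 6 HOX genes had 0 counts and the sum was at most 0.148 CPM in any library. Single libraries stood apart: 5 thalamic markers summed to 198 CPM in wild-type replicate 1 and to between 66.8 and 73.4 CPM in the others, and 5 choroid plexus markers summed to 107 CPM in mutant replicate 1 and to between 11.1 and 14.8 CPM in the others. TTR alone made up 94.97 of the 107 CPM. The markers KCNJ13 and CLIC6 were also highest in mutant replicate 1 (3.28 and 4.35 CPM), while FOLR1 and OTX2 were highest in wild-type replicate 1. All 10 oligodendrocyte markers were lower in the mutant libraries, with sums of 3577 and 3652 CPM against 1341 and 1392 CPM. Of 8 astrocyte markers all were below 0 and 2 fell, with sums of 5286 and 5114 against 3789 and 4088 CPM. Of 8 microglia markers 7 were below 0 and 3 fell. Among all genes tested, 1.57% fell (edgeR adjusted p under 0.05). The shares that fell among the neuronal, astrocyte and microglia markers were each larger than that. Blood cell markers summed to 3.92 and 6.27 CPM in wild-type and to 14.7 and 9.65 CPM in mutant libraries. Of the 3 that were tested, 2 were above 0 and 1 below, and 1 rose (AZU1), or 33.3% against 0.661% of all genes. Of 6 endothelial and pericyte markers 0 passed. In such bulk RNA, fewer cells of a type and less RNA per cell cannot be told apart.

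The 8 genes lie on marmoset chromosome 1 in the RefSeq annotation of the assembly calJac240_pri, in the order PRDM12, RALGDS, GBGT1, SURF4, REXO4, SARDH, VAV2, MAMDC4. RALGDS and GBGT1 are direct neighbours, SARDH and VAV2 have no other counted gene between them, and SURF4 and REXO4 are separated by 1 counted gene, STKLD1. PRDM12 stands 39 counted genes before RALGDS, and MAMDC4 stands 65 counted genes after VAV2. No source used here names the genome build behind the deposited counts, so gene order was used and no coordinates are printed.

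GBGT1, which adds the terminal sugar of the Forssman glycolipid, was about 2-fold higher in the mutant libraries. Wild-type replicates 1 and 2 held 116 and 96 counts of it, and mutant replicates 1 and 2 held 274 and 222, or 8.75 and 7.82 CPM against 20.9 and 16.5 CPM. Both mutant values lay above both wild-type values, and mutant replicate 1 was the highest. The log2 fold change (mutant over wild-type throughout) was 1.17 with an SE of 0.21. GBGT1 is the best counted of the 5 changed genes, and the ratio of its summed counts, 2.25, had a 95% counting interval of 1.91 to 2.65. Such intervals cover counting error only, not the spread between animals.

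REXO4, a nuclear exonuclease related to factors that trim ribosomal RNA, was also about 2-fold higher. Its counts were 54 and 55 in the wild-type and 115 and 115 in the mutant libraries, or 4.07 and 4.48 CPM against 8.78 and 8.53 CPM. The libraries of a group were nearly equal, and the groups did not overlap. On the log2 scale the fold change was 1.02 (SE 0.27).

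PRDM12, a zinc finger protein of developing sensory neurons and of the embryonic hindbrain and spinal cord, was counted 11 and 19 times in the wild-type and 65 and 43 times in the mutant libraries. In CPM these were 0.830 and 1.55 against 4.96 and 3.19. The groups did not overlap, but the libraries of each group differed widely. Its log2 fold change was 1.78 (SE 0.42), and it was 1.39 without wild-type replicate 1 and 2.28 without wild-type replicate 2. The hindbrain and spinal cord markers given above were at or near 0 in all 4 libraries. In another list, of pain-sensing and spinal cord genes (given below), 6 tested genes were above 0 and 3 below. Among the 6 was PTF1A, with 18 and 12 counts in the wild-type and 32 and 22 in the mutant libraries. Which cells held the PRDM12 RNA was not tested.

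MAMDC4, named for its MAM adhesion domains, was rare in every library. It was counted 4 and 5 times in the wild-type and 25 and 25 times in the mutant libraries, or 0.302 and 0.407 CPM against 1.91 and 1.86 CPM. All mutant values were above all wild-type values. Its log2 fold change of 2.38 (SE 0.61) rests on 9 wild-type counts in all, and the ratio of summed counts, 5.34, had a counting interval of 2.60 to 12.35.

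SARDH, which turns sarcosine into glycine and hands a methyl group to folate, was the 1 changed gene of the 5 with less RNA in the mutant libraries. It was counted 17 and 33 times in the wild-type and 3 and 3 times in the mutant libraries, or 1.28 and 2.69 CPM against 0.229 and 0.223 CPM. The groups did not overlap, and the wild-type libraries differed from each other about as 1 to 2 in CPM. Its log2 fold change was -3.08 (SE 0.68), and it was -2.46 without wild-type replicate 2. Summed counts were 8.67-fold higher in wild-type libraries, with a counting interval of 3.72 to 24.8. The oligodendrocyte, astrocyte and microglia markers given above moved the same way, and their part in this difference was not tested.

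**Figure D1:**
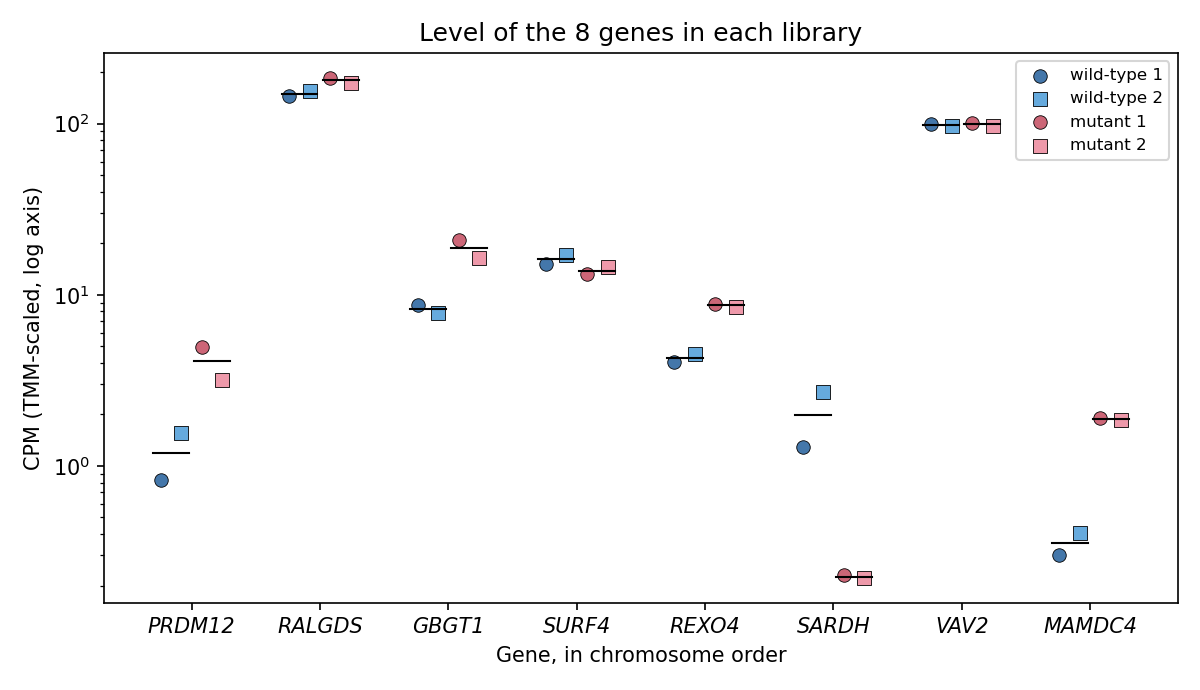
Level of each of the 8 genes in the 4 libraries, in TMM-scaled CPM on a log axis, with genes in chromosome order; points are libraries and black lines are group means (n = 2 per group). GBGT1, REXO4, PRDM12 and MAMDC4 sit higher in both mutant libraries and SARDH sits lower, while the VAV2 points overlap between 96.9 and 101 CPM.

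By the size of their change, MAMDC4, PRDM12, GBGT1 and REXO4 ranked 5, 6, 11 and 12 among 85 higher genes that passed, have a symbol, reach 1 CPM in the group where they are higher and have groups that do not overlap. SARDH ranked 4 among 234 lower genes. Their calls depended on the fit: by DESeq2 GBGT1 passed and the other 4 did not. Of the 4 fits that each left out 1 library, GBGT1 passed in 3 (not without mutant replicate 1) and PRDM12 in 2 (not without wild-type replicate 1 or mutant replicate 1). MAMDC4 and REXO4 passed in 1, without wild-type replicate 2, and SARDH passed in 1, without wild-type replicate 1. REXO4 was the last gene inside the earlier limit of 12 per direction, and LRRIQ1, at a log2 fold change of 0.98, was the first outside it. Between the genes that differ, the direction was mixed along the chromosome: GBGT1 and REXO4 were higher, and SARDH, with 9 counted genes between it and REXO4, was lower.

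The 3 genes chosen by position did not pass the test. RALGDS, next to GBGT1, was counted 1912 and 1900 times in the wild-type and 2419 and 2334 times in the mutant libraries, or 144 and 155 CPM against 185 and 173 CPM. Its groups did not overlap, as was so for 43.1% of all genes tested. The log2 fold change was 0.26 (SE 0.12, 95% interval 0.02 to 0.50) with an adjusted p of 0.31 (edgeR quasi-likelihood test, Benjamini-Hochberg over all 16956 genes tested).

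SURF4, beside REXO4, was counted 200 and 210 times in the wild-type and 173 and 195 times in the mutant libraries, or 15.1 and 17.1 CPM against 13.2 and 14.5 CPM. The mutant values lay just below the wild-type values, and groups did not overlap for 43.1% of all genes tested. The log2 fold change was -0.22 (SE 0.19, 95% interval -0.60 to 0.17; edgeR adjusted p = 0.688).

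VAV2, beside SARDH, was counted 1314 and 1190 times in the wild-type and 1327 and 1308 times in the mutant libraries, or 99.1 and 96.9 CPM against 101 and 97.1 CPM. The groups overlapped. The log2 fold change was 0.02 (SE 0.12, 95% interval -0.23 to 0.26; edgeR adjusted p = 0.979).

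Ratios taken inside a library do not depend on how libraries are scaled. GBGT1, REXO4 and SARDH were chosen for their change, so these ratios describe it on another scale and add no support. Per 100 counts of RALGDS there were 6.07 and 5.05 counts of GBGT1 in the wild-type and 11.3 and 9.51 in the mutant libraries. Per 100 counts of SURF4 there were 27.0 and 26.2 counts of REXO4 in the wild-type and 66.5 and 59.0 in the mutant libraries. Per 100 counts of VAV2 there were 1.29 and 2.77 counts of SARDH in the wild-type and 0.226 and 0.229 in the mutant libraries.

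**Figure D2:**
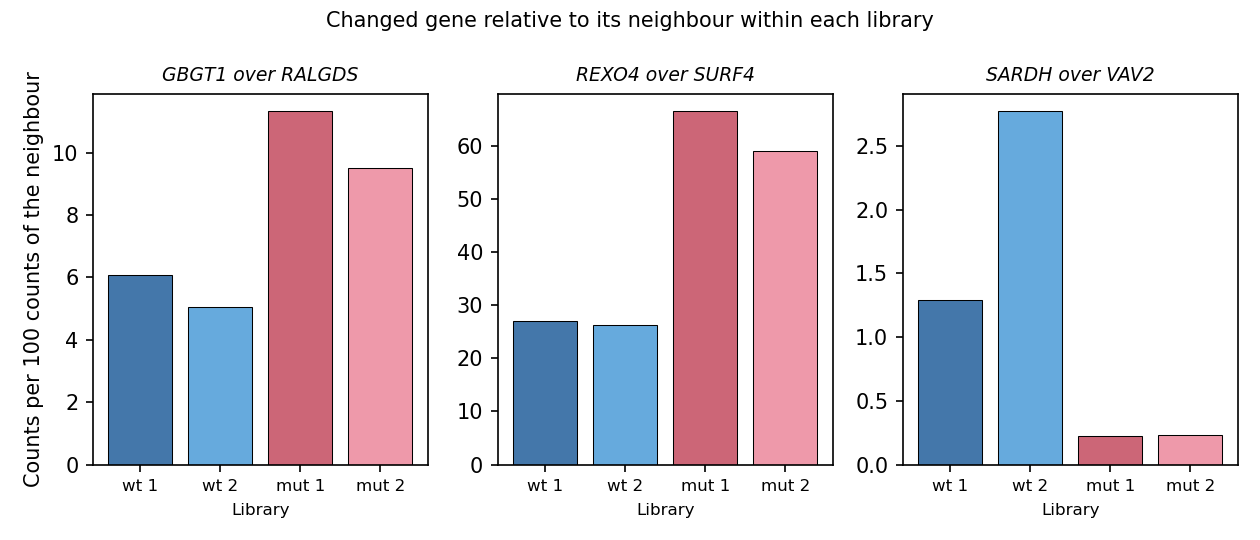
Counts of a changed gene per 100 counts of the gene chosen beside it, in each library (wt, wild-type; mut, mutant; bars are single libraries, and each panel has its own vertical axis from 0). GBGT1 and REXO4 stand higher against their neighbours in both mutant libraries, and SARDH stands lower.

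The nearest counted gene on either side of each changed gene gave no further call. Beside REXO4, the kinase-like gene STKLD1 was counted 48 and 43 times in the wild-type and 31 and 40 times in the mutant libraries (log2 fold change -0.41, SE 0.36, edgeR adjusted p = 0.682). On its other side ADAMTS13, the protease that cuts von Willebrand factor, had 0 counts in every library, which allows up to 0.223 to 0.244 CPM at 3 counts. Beside SARDH, DBH, which makes noradrenaline, had 49 and 38 against 22 and 40 counts (-0.54, SE 0.38, adjusted p = 0.591).

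MAMDC4 lies between PHPT1, a histidine phosphatase, and EDF1, a transcriptional coactivator, both counted far more often. PHPT1 had 672 and 621 counts in the wild-type and 571 and 569 in the mutant libraries (log2 fold change -0.24, SE 0.14, edgeR adjusted p = 0.465). EDF1 had 2006 and 1866 against 2142 and 1593 counts (-0.11, SE 0.13, adjusted p = 0.802). Neither neighbour had the rise described for MAMDC4. No source used here says whether reads were counted by strand, so reads of overlapping neighbours on the opposite strand cannot be told apart.

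FUBP3, a DNA- and RNA-binding protein gene next to PRDM12, had 611 and 547 counts in the wild-type and 568 and 605 in the mutant libraries (log2 fold change -0.04, SE 0.14, edgeR adjusted p = 0.952). LOC100397457, on the other side of PRDM12, had 0 counts in all libraries. LOC100413375, the counted gene after GBGT1, was too uneven to read, with 7 and 23 against 15 and 0 counts (-1.05, SE 1.18, adjusted p = 0.785). Of the genes next to the 3 positional neighbours, SURF2 beside SURF4 was at 0.17 (SE 0.17, adjusted p = 0.734) and LOC100894993 beside VAV2 at -0.26 (SE 0.14, adjusted p = 0.454). CEL, the counted gene before RALGDS, had between 3 and 11 counts and was not tested.

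In a wider window, the changed genes stood among genes that mostly did not pass. Taking the 10 nearest tested genes on each side of each of the 5 changed genes gave 75 other genes, of which 2 fell, 0 rose and 73 did not pass. That is 2.67%, against 2.23% of all genes tested (0.661% higher and 1.57% lower), so the share was near the background. DESeq2 and limma-voom also called 2 of the 75 each, where they called 1.38% and 2.26% of all genes, and 9 (12%) had an unadjusted p under 0.05 by edgeR, against 13.4% of all genes. The median log2 fold change of the 75 was -0.06, against -0.004 over all genes tested, with 30 above 0 and 45 below. Their groups did not overlap in 37.3%, against the 43.1% given above. With 20 genes on each side, 2 of 119 fell and 0 rose.

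The 2 that fell were FAM163B and ABCA2. FAM163B lies between REXO4 and SARDH and was counted 2864 and 3434 times in the wild-type and 2229 and 1985 times in the mutant libraries (log2 fold change -0.64, SE 0.13, edgeR adjusted p = 0.00336). Both mutant values were below both wild-type values. Leaving out wild-type replicate 2 or mutant replicate 2 ended the call of FAM163B, with adjusted p of 0.0974 and 0.102. ABCA2, a lipid transporter abundant in oligodendrocytes and a few genes past MAMDC4, was counted 2429 and 2674 times against 1874 and 2060 times (-0.44, SE 0.12, adjusted p = 0.0421). It passed without wild-type replicate 1 and in no other fit that left out a library (adjusted p = 0.377, 0.256 and 0.0935 without wild-type replicate 2, mutant replicate 1 and mutant replicate 2).

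The stretch that runs from RALGDS to VAV2 in the human order holds 6 of the 8 genes. Of its 21 listed genes, 18 have a row and 15 were tested. Leaving aside GBGT1, REXO4 and SARDH, 12 tested genes remained, with 1 fallen (FAM163B), 0 risen and a median of 0.00. That 1 gene is 8.33% of 12, against 2.23% of all genes, and the groups of 58.3% did not overlap, against 43.1%. By DESeq2 and by voom 1 of the 12 was called each, where they called 1.38% and 2.26% of all genes. By edgeR 3 of the 12 had an unadjusted p under 0.05, a larger share than the 13.4% of all genes. The next 5 genes were named after their values were seen. SURF6 (not placed in the marmoset order used here), CACFD1, SLC2A6 and ADAMTSL2 were between -0.07 and 0.12, on both sides of 0. RPL7A, a ribosomal protein gene in the surfeit cluster, was counted 91 and 70 times in the wild-type and 136 and 150 times in the mutant libraries (0.77, SE 0.24, edgeR adjusted p = 0.0822). Its groups did not overlap, but it did not pass. Whether its reads were shared with processed pseudogenes was not tested.

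Around PRDM12, from NCS1 to NUP214, 9 other tested genes gave 0 calls with edgeR, with DESeq2 and with voom, and in edgeR 0 had an unadjusted p under 0.05. Their median was -0.07. Around MAMDC4, from TMEM141 to ABCA2, 11 other tested genes gave 1 call by edgeR, DESeq2 and voom alike, ABCA2, with a median of -0.06. That 1 gene is 9.09% of 11, against 2.23% of all genes.

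**Figure D3:**
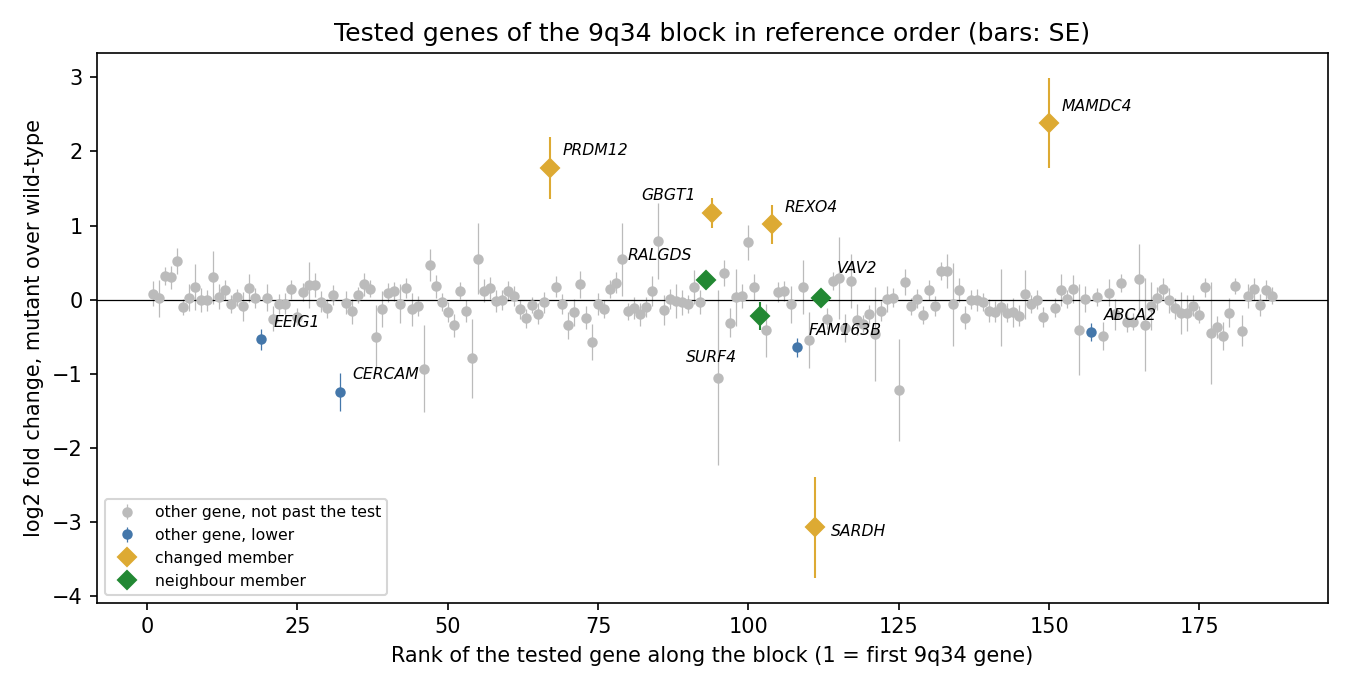
Log2 fold change (mutant over wild-type, points; bars are SE) of the 187 tested genes from the first to the last 9q34 gene, by rank along marmoset chromosome 1 in the RefSeq order. The changed genes (yellow diamonds, chosen for their size) are set apart from the genes next to them, most of which lie near 0, with RALGDS, SURF4 and VAV2 as green diamonds and the 4 other genes that fell in blue.

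Over the whole band, 201 of 208 listed human 9q34 genes have a row, and 167 of them were tested. Including the 5 genes chosen for their change, 4 rose and 5 fell (5.39%, a share from which nothing is read because the choice used it). Without them, 4 of 162 fell and 0 rose, or 2.47% against the background of 2.23%, and the median was -0.03. DESeq2 called 3 and voom 4 of the 162, and 21 had an unadjusted p under 0.05. Of the 201, 199 were placed in the RefSeq order of marmoset chromosome 1, the only chromosome searched. On that chromosome 33 of 1217 tested genes passed (2.71%), or 2.31% of 1212 without the 5 chosen for their change.

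The other 2 genes that fell lie toward the start of the band. CERCAM is named for adhesion in the brain's endothelium, and which cells held its RNA here was not tested. CERCAM had 132 and 121 wild-type counts against 56 and 55 mutant counts (log2 fold change -1.24, SE 0.26, edgeR adjusted p = 0.00452). It did not pass without mutant replicate 1 (0.0515) or mutant replicate 2 (0.0624). EEIG1, an estrogen-induced gene with a role in osteoclasts, was counted 640 and 663 times against 463 and 475 times (-0.53, SE 0.14, adjusted p = 0.0304). It did not pass by DESeq2 (0.0852) and passed without wild-type replicate 1 only among the fits that left out a library.

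Within the 167 tested 9q34 genes, the likeness of 2 genes was measured as the Euclidean distance between their log2 CPM values over the 4 libraries, each centred on its gene's mean. GBGT1 and REXO4 were each other's nearest (distance 0.336), followed by CFAP77 for GBGT1 (0.447) and RPL7A for REXO4 (0.372). MAMDC4 and PRDM12 were each other's nearest (0.630), with GBGT1 second for both (0.943 and 0.874). For SARDH the nearest were CERCAM (1.39) and GLT6D1 (1.61), neither of them close. The measure follows the size and direction of the change that chose the 5 genes and rests on 4 libraries, so it is a description only. CFAP77 (14 and 11 against 25 and 20 counts; edgeR adjusted p = 0.550) and GLT6D1 (12 and 13 against 8 and 3 counts; adjusted p = 0.463) did not pass.

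The other genes of each member's pathway were read from lists that name genes by function. SARDH is 1 of 30 listed enzymes of sarcosine, choline and folate metabolism. Among the 25 other tested enzymes 0 passed with edgeR, with DESeq2 and with voom, and in edgeR 2 had an unadjusted p under 0.05 (median -0.13). The 2 were ALDH1L1, a folate enzyme of astrocytes and the one of smaller p (log2 fold change -0.41, SE 0.14, edgeR adjusted p = 0.118), and GNMT. The enzymes named here were chosen after their values were seen. GNMT, which makes sarcosine, had 58 and 52 counts in the wild-type and 103 and 93 in the mutant libraries (log2 fold change 0.78, SE 0.28, edgeR adjusted p = 0.159). PIPOX, a peroxisomal enzyme that also breaks down sarcosine, had 59 and 46 against 33 and 44 counts (-0.50, SE 0.34, adjusted p = 0.576). DMGDH, the enzyme of the step before SARDH, had 3 and 1 against 0 and 0 counts and was not tested.

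Among 11 other tested glycolipid enzymes, 1 fell and 0 rose (1 by DESeq2 and 1 by voom), or 9.09% against 2.23% of all genes. It was UGT8, which makes the galactolipids of myelin, with 960 and 810 counts in the wild-type and 401 and 400 in the mutant libraries (log2 fold change -1.20, SE 0.14, edgeR adjusted p = 4.61e-07). UGT8 is also 1 of the 10 oligodendrocyte markers. The enzymes that build the substrate of GBGT1, named here for that role after their values were seen, did not pass: A4GALT was at -0.09 (SE 0.35, adjusted p = 0.957) and B3GALNT1 at 0.24 (SE 0.12, adjusted p = 0.365).

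For REXO4, 18 other tested genes of RNA exonucleases and ribosome maturation gave 0 calls with edgeR, with DESeq2 and with voom, and in edgeR 0 had an unadjusted p under 0.05. Their median was 0.13, with 14 above 0 and 4 below. Its relatives REXO1 (-0.10, SE 0.12), REXO2 (0.18, SE 0.17) and REXO5 (0.22, SE 0.50), named as members of the same family, did not pass either.

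For PRDM12, 11 other tested PRDM genes gave 0 calls with edgeR, with DESeq2 and with voom, and in edgeR 1 had an unadjusted p under 0.05. That gene was PRDM8, a neuronal repressor, named after its values were seen (2965 and 2757 against 3545 and 3699 counts; log2 fold change 0.28, SE 0.11, edgeR adjusted p = 0.231). Of 19 genes of pain-sensing neurons and the embryonic spinal cord, 9 had enough counts to test, and 0 passed by edgeR or DESeq2. In edgeR 4 of the 9 (44.4%) had an unadjusted p under 0.05, against 13.4% of all genes. The groups of 66.7% did not overlap, against 43.1%. The median of the 9 was 0.40, with 6 above 0 and 3 below. Of the 4, SCN9A (0.40, SE 0.18) and PRPH (0.38, SE 0.17) were above 0 and TAC1 (-0.36, SE 0.14) was below, all 3 named after their values were seen. The gene of smallest p was CALCA, the precursor of calcitonin gene-related peptide, which had 46 and 44 counts in the wild-type and 23 and 8 in the mutant libraries (-1.58, SE 0.45, edgeR adjusted p = 0.0535). CALCA was the 1 gene of this list that voom called (adjusted p = 0.0379). TLX3, a spinal cord and sensory factor also named after its values were seen, had 0 counts in every library. Named in the same way, PTF1A (0.79, SE 0.49) and SCN10A (1.08, SE 0.62) were above 0 and NEUROG2 (-0.11, SE 0.32) was below. None of these passed.

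MAMDC4 was listed with other MAM domain and apical endosome genes. Of the 14 others tested, 1 rose and 0 fell (1 by DESeq2 and 1 by voom). That is 7.14%, against 2.23% of all genes, and the groups of 78.6% did not overlap, against 43.1%. It was MDGA1, a MAM domain protein at synapses, with 674 and 651 counts in the wild-type and 963 and 1262 in the mutant libraries (log2 fold change 0.69, SE 0.14, edgeR adjusted p = 0.00259). Both mutant libraries were above both wild-type libraries.

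The pathways of the 3 positional neighbours gave no call. The edgeR share under an unadjusted p of 0.05 was 17.6%, 20.0% and 0% in the RAL, VAV and ER lists, against 13.4% of all genes. Of 17 tested RAL pathway genes, RALGDS included, 0 passed with edgeR, with DESeq2 and with voom (in edgeR 3 at an unadjusted p under 0.05, median -0.04), with RALGAPA2, a brake on RAL, at -0.36 (SE 0.14, edgeR adjusted p = 0.187). Of 15 VAV and RAC genes, 0 passed with any of these tools (3 at an unadjusted p under 0.05, median 0.02), with the kinase PAK1 at -0.38 (SE 0.12, adjusted p = 0.0853). Of 21 genes of ER cargo receptors and the COPII coat, 0 passed with any of them (0 at an unadjusted p under 0.05, median -0.01), with the coat subunit SEC24C at 0.22 (SE 0.13, adjusted p = 0.494).

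Leaving out any 1 library kept the sign of all 5 changed genes. The log2 fold change ranged from 0.99 to 1.34 for GBGT1, from 0.95 to 1.09 for REXO4, from 1.39 to 2.28 for PRDM12, from 2.18 to 2.61 for MAMDC4 and from -3.52 to -2.46 for SARDH. Since the groups of these genes did not overlap by choice, that sign is fixed by how they were chosen. RALGDS ranged from 0.21 to 0.31 and SURF4 from -0.30 to -0.12, while VAV2 ranged from -0.01 to 0.05 and so lay on both sides of 0.

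**Figure D4:**
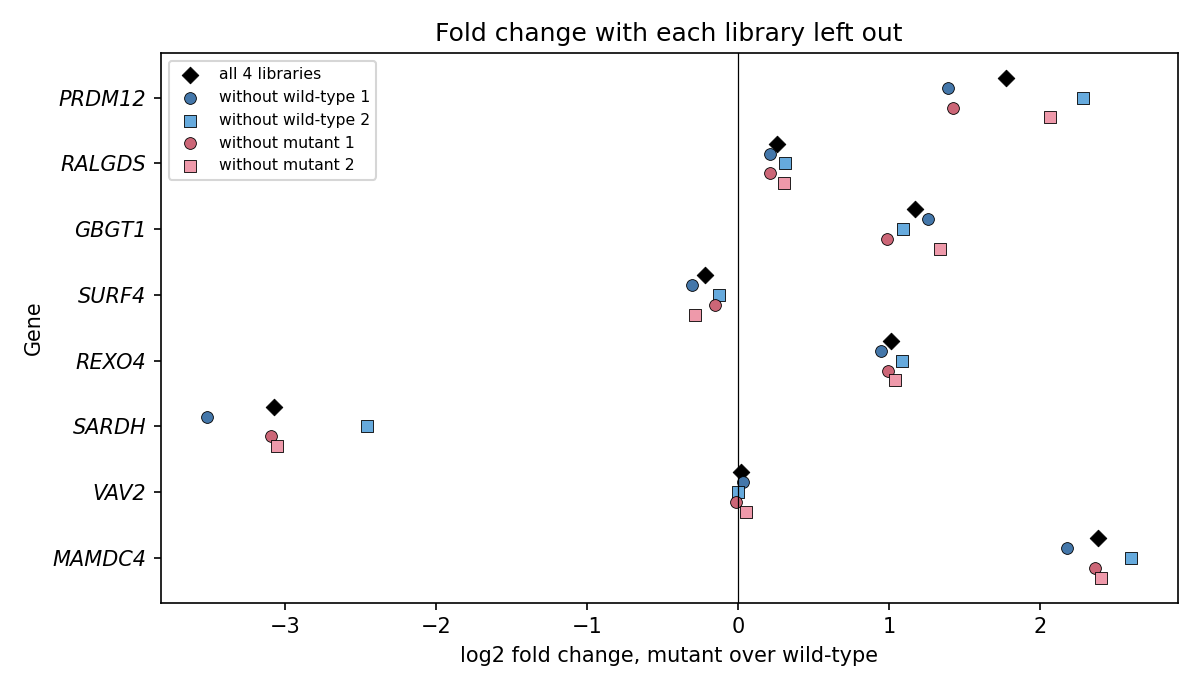
Log2 fold change (mutant over wild-type) of the 8 genes with all 4 libraries and with each library left out in turn; genes are in chromosome order. PRDM12 and SARDH move most between fits, and VAV2 stays between -0.01 and 0.05.

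The counts hold no reads by allele and the labels give no family relations. Whether the mutant or the wild-type animals shared a haplotype in this block was not tested.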

How the data were processed

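Per the labels, poly(A) RNA of 4 brain libraries was made into directional libraries. Trimmomatic 0.38 and STAR 2.7.10a are named per the submitters' processing notes. The counter, its strand option, the annotation and the build were not given in the sources used here. Per the file headers, genes are rows and libraries are columns. The authors deposited whole-number counts for 35205 genes without normalization, and columns were matched to libraries by their labelled names. In R 4.3.3, edgeR 4.0.16 (filterByExpr at a minimum count of 10, TMM scaling, robust quasi-likelihood test with 2 residual degrees of freedom) compared the groups over 16956 genes, with Benjamini-Hochberg adjustment and a threshold of 0.05. The test was also run on simulated counts, and the outcome of that run is not reported here. CPM are counts over the TMM-scaled library size. The SE is the log2 fold change divided by the square root of F. DESeq2 1.42.0 (all rows), limma-voom (limma 3.58.1), other scalings and filters, a replicate block and each library left out (the same 16956 genes) were alternatives.

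Libraries of a group differed by more than counting noise (chi-square per degree of freedom of 7.79 and 7.42). The 8 members and all lists were chosen with earlier results of these data known. Gene order came from RefSeq (calJac240_pri, 30938 of 35205 symbols matched). Named genes were the members, their nearest counted genes, up to 6 passing 9q34 genes per direction, up to 2 passing genes per pathway list (or the 1 of smallest p), and the 2 nearest in pattern. No sequences of these genes were used here.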

Additional observations from a re-analysis of the deposited data

How the results depend on the processing

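Across all genes, 378 passed. The count was 633 without a low-count filter, 244 by DESeq2 (all rows), 624 at an adjusted p of 0.1 and 493 with the replicate number as a block, and it ranged from 163 (without mutant replicate 1) to 562 (without wild-type replicate 2) when 1 library was left out. Of the 9q34 genes, 9 passed, 9 with the replicate block and 4 by DESeq2, and 1 to 6 with a library left out (1 without mutant replicate 1, 2 without mutant replicate 2, 5 without wild-type replicate 2). Of the 75 flanking genes, 2 passed, 2 with the replicate block, and 0 to 2 with a library left out (0 without wild-type replicate 2 or mutant replicate 2). With 5 genes on each side, 1 passed, since fewer genes were counted. The VAV2 log2 fold change of 0.02 ranged from -0.0141 (without mutant replicate 1) to 0.0504 (without mutant replicate 2). The causes of the other shifts were not tested. RLE and upper quartile scaling, robust = FALSE, a mean of at least 1 CPM and voom left 9 of the 9q34 genes and 2 of the flanking genes past the threshold. Same-numbered libraries deviated together at r = 0.03 across genes, which are not independent replicates, so the replicate numbers were not taken as pairs. Low counts limit MAMDC4, SARDH and PRDM12 most.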
